A study of Rattus norvegicus with 4 samples.

Results

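The 38 genes described here serve sterol synthesis and lipid handling. They were chosen by name as members of this pathway, by a list of rat gene symbols, and a probe was counted for a gene when its transcript accession belonged to that gene in the RefSeq table of rat genes. All 38 had a probe, out of 16581 named genes on the array. The samples were 4 cultures of NR8383, a rat alveolar macrophage line established by lung lavage, kept to 20 passages and grown as a mixture of attached and floating cells in 25 cm2 flasks for 48 h. All 4 were exposed to NRCWE006 nanotubes, which are multi-walled tubes of rolled carbon sheets, at a dose given as 1 cm2/cm2 for 4 h, and they were numbered as replicates 1 to 4. Cultures without nanotubes, which the study also describes, were not analysed here. No value below is therefore an effect of the nanotubes. The values show which of these transcripts could be measured after exposure, and the spread of each between cultures.

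Cells build cholesterol from acetyl-CoA through mevalonate, squalene and a chain of sterol intermediates. The transcription factor SREBP2, held in the endoplasmic reticulum by SCAP and the INSIG proteins, switches these enzymes on when sterol is scarce, while the oxysterol receptors called LXR switch on the export pumps ABCA1 and ABCG1 when sterol is plentiful. Alveolar macrophages take up and break down lung surfactant and are known for a lipid programme led by PPARG, the product of Pparg.

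Each culture was hybridised to 1 Agilent array in 1 colour. Levels are log2 of the processed signal relative to the 75th percentile, on the same array, of the probes well above background on all arrays. Levels of different probes cannot be set against each other. A gene is called detected when a probe of it was well above background on all 4 arrays by the scanner software's flag. Replicates 1 to 4 had between 4252 and 6476 probes well above background. With 4 arrays, every SD below is itself imprecise. Replicate 4 stood apart. Its correlation with the other arrays over detected genes, which are not independent replicates, was 0.924 to 0.936, against 0.975 to 0.981 among replicates 1 to 3. It had 656 gene spots called non-uniform, against 9 to 34 on the others. The lowest signal that still counted as well above background was 8.06% of the scaling percentile on replicate 4 and 3.33% to 5.81% on the others. Replicate 4 also had 1181 named genes called on it alone, against 44 to 490 on the others. Whether dim transcripts were harder to call there was not tested. RNA of a culture, its labelling and its hybridisation cannot be told apart with 1 array per culture, and neither can fewer cells of a kind and less RNA per cell.

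Of the 38 genes, 15 were detected (39.5%), 10 were well above background on some arrays and 13 on none. Over all named genes measured on every array, 11.9% were detected. The genes of sterol export and lysosomal handling were detected most often (4 of 6), then the regulators (3 of 7), the mevalonate enzymes, the storage genes and the fatty acid genes (2 of 6, 1 of 3 and 2 of 6) and the later sterol enzymes (3 of 10). The array prints most probes once and some 10 times, and 8 of the 46 probes of these genes were printed 10 times. Among probes printed 10 times, 6 of 8 for these genes were detected against 53.3% of all named ones, and among probes printed once, 9 of 37 against 8.15%. A transcript that was not called may still be present below what the array can measure.

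**Figure D1:**
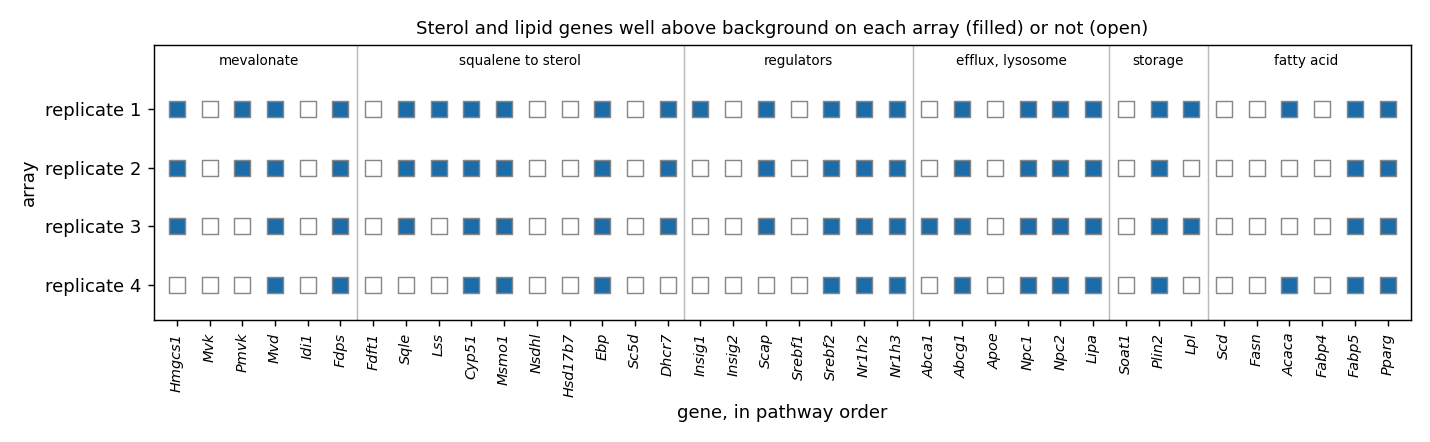
Each column is a gene in pathway order and each line of squares an array, with a filled square where a probe of the gene was well above background and an open square where none was. The 15 columns filled on all 4 arrays are the detected genes, and replicate 4 has 16 filled squares, against 24, 21 and 21 on replicates 1 to 3.

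The arrays called 24, 21, 21 and 16 of the 38 genes on replicates 1 to 4. Over all named genes they called 21.1%, 17.7%, 15.8% and 20.3%. Replicate 4 thus had the fewest sterol and lipid genes above background, although it had more genes in general above background than replicates 2 and 3. Hmgcs1, Sqle, Dhcr7 and Scap were missed on replicate 4 alone. This split was near the general one, as 81.0% of the 589 named genes called on exactly 3 arrays were missed on replicate 4. With calls set by the negative control spots, an alternative added after the data were seen, the arrays called 30, 30, 27 and 25 of the 38, and 6921, 5832, 5453 and 7109 of all named genes.

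The early enzymes make the isoprenoid units. Hmgcs1 (HMG-CoA synthase, which makes the precursor of mevalonate) gave signals of 43.2, 23.2 and 17.9 on replicates 1 to 3, all well above background, and 7.27 on replicate 4, which was not. Mvd (mevalonate diphosphate decarboxylase) was detected, with levels of -2.24, -1.76, -2.38 and -1.49 on replicates 1 to 4. Its arrays lay within a 1.86-fold range. Fdps (farnesyl diphosphate synthase) was also detected, at -2.41, -2.45, -2.68 and -2.97. On replicate 4 only 6 of its 10 spots were well above background, close to the limit for a call. Pmvk (phosphomevalonate kinase) was called on replicates 1 and 2 only, with signals of 37.6 and 31.7 there, and 17.3 and 18.2 on replicates 3 and 4. Mvk (mevalonate kinase) and both probes of Idi1 (isopentenyl diphosphate isomerase) were called on no array.

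Of the enzymes from squalene to cholesterol, Cyp51, Msmo1 and Ebp were detected. Msmo1 (methylsterol monooxygenase, which oxidises a methyl group of the sterol ring) had levels of -1.32, -1.48, -1.65 and -2.57 on replicates 1 to 4. Its lowest array lay 2.39-fold under its highest, and replicate 4 was clearly the low one. Ebp (a sterol isomerase) had the opposite pattern, with -2.28, -2.29, -2.42 and -1.22, so that replicates 1 to 3 lay together and replicate 4 was 2.30-fold above the lowest. Cyp51 (lanosterol demethylase) varied less, at -2.11, -2.42, -2.05 and -2.50, by the probe that gave the gene's level. Its other probe, with 1 spot per array, was called on replicates 1 and 2 only. That probe had signals of 34.2, 22.1, 13.6 and 13.4 on replicates 1 to 4, and its level was lowest on replicate 3, the highest array of the first probe. Sqle (squalene epoxidase, a rate-limiting oxygenase) had signals of 48.5, 29.7 and 21.9 on replicates 1 to 3 and 6.45 on replicate 4, where none of its 10 spots was well above background. With its signal set to the lowest one called there, Sqle was 1.33-fold lower on replicate 4 than the mean of the other arrays. This is not a strict bound, because Scap was not called on replicate 4 at a higher signal, 21.1. The 1.33-fold value for Sqle is from the main processing. After normexp background correction the difference was -0.10 on the log2 scale. Dhcr7 (a sterol reductase of the last steps) gave signals of 21.6, 21.8 and 18.3 on replicates 1 to 3 and 8.70 on replicate 4, too close to the limit for a fold. Lss (lanosterol synthase) was called on replicates 1 and 2 by 1 of its 2 probes. Fdft1 (squalene synthase), Nsdhl and Hsd17b7 (enzymes of sterol demethylation) and Sc5d (a sterol desaturase) were called on no array.

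Promoters are shown for the detected synthesis genes that hold the box bound by NF-Y, a factor that works beside SREBP2 at sterol genes, since these are the genes whose levels could be followed on all arrays. RefSeq promoters of GRCr8, with 250 bases before and 50 after the gene start, were at hand for 29 of the 38 genes (34 promoters). The box CCAAT, searched on both strands, was in 23 of the 34, in 11 of the 13 promoters of synthesis enzymes and in 37.5% of all 33469 rat promoters of this length. Apoe and Srebf1 each count 2 times among the 23, and the Apoe windows overlap and share the same box. TCACNCCAC, a form of the sterol regulatory element, was in none of the 34 and in 1.12% of all promoters, which says only that these letters are not in these windows. Cyp51 held no CCAAT. Each promoter reads along the gene's strand, and capitals mark CCAAT or its reverse complement: Mvd at chr19:67414925-67415224 and Fdps at chr2:176804767-176805066, both on the minus strand, and Msmo1 at chr16:29746863-29747162 and Ebp at chrX:16971212-16971511, both on the plus strand.
Mvd: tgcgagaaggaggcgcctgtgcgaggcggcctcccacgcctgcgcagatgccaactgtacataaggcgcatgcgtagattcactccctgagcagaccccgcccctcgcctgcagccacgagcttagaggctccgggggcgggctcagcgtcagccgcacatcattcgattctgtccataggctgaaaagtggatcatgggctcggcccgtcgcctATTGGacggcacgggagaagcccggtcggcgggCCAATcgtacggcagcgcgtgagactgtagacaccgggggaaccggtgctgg
Fdps: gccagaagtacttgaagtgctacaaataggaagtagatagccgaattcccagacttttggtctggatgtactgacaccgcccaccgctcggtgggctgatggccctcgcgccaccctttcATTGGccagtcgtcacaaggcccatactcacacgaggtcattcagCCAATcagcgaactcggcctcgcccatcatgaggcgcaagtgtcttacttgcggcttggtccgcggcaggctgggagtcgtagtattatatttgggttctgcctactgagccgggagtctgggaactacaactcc
Msmo1: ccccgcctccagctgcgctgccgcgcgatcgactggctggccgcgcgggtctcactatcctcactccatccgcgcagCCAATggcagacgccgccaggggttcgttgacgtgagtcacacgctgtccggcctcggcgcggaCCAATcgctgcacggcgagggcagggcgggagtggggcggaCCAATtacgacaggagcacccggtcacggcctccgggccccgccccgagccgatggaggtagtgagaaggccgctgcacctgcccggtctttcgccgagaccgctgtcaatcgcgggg
Ebp: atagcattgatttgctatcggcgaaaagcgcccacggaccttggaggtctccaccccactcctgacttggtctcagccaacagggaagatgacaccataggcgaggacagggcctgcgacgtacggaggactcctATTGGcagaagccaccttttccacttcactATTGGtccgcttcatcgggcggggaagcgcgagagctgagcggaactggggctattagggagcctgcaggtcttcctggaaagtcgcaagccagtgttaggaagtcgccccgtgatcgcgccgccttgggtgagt
The Msmo1 promoter holds 3 such boxes, starting 173, 109 and 68 bases before the gene start, and the Ebp promoter holds 2, starting 115 and 85 bases before it. A match is a description of letters and not a measured binding site.

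Among the regulators, Srebf2 (which encodes SREBP2) was detected at -2.04, -2.15, -2.48 and -2.27 on replicates 1 to 4, with an SD of 0.19 (n = 4). Both probes of Srebf1 (the related factor SREBP1, of fatty acid synthesis) were called on no array. Scap, the sterol sensor that carries SREBP2, gave signals of 50.3, 50.9 and 30.1 on replicates 1 to 3 and 21.1 on replicate 4, where it was not called. Insig1, which holds SCAP back, was called on replicate 1 only, by 1 of 2 probes, with a signal of 26.5. Insig2 was called on none. The LXR genes were both detected. Nr1h3 (LXR alpha) had 0.04, 0.43, 0.47 and 0.28, a 1.35-fold range. Nr1h2 (LXR beta) had -2.13, -1.95, -3.37 and -1.77, and its low array was replicate 3, at a signal of 22.8 against 87.6, 72.5 and 65.5 on replicates 1, 2 and 4. Both LXR genes rested on 1 spot per array, so the low value of Nr1h2 on replicate 3 has no second spot beside it.

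Sterol export and lysosomal handling held the largest share of detected genes among the groups of the 38, at 4 of 6. Of 16 further sterol transport genes, from the wider list below, 2 were detected (12.5%), near the 11.9% of all named genes. Abcg1 (a sterol export pump) had levels of 1.54, 1.03, 1.08 and 0.77 on replicates 1 to 4, with signals of 1120, 572, 499 and 381. Abca1 (the other pump) was called only on replicate 3, with a signal of 27.6, against 4.08, 3.89 and 4.11 on replicates 1, 2 and 4, near the median negative control signals of 2.98 to 4.61. Npc1 and Npc2, which pass cholesterol out of the lysosome, were detected at -2.66, -2.35, -2.96 and -3.21 for Npc1. Npc2 had -1.94, -1.85, -1.59 and -1.87, a 1.27-fold range. Lipa (lysosomal acid lipase, which frees cholesterol and fatty acids from particles taken up) had -1.03, -1.44, -1.48 and -2.62, a 3.01-fold range with replicate 4 lowest. Apoe (apolipoprotein E, which carries exported lipid) was called on no array. Its 10 spots had a median signal of 3.82, 3.47 and 3.75 on replicates 1 to 3 and 15.9 on replicate 4, where single spots reached from 7.49 to 71.7 and 3 of 10 were well above background.

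Of the storage genes, Plin2 (perilipin 2, which coats lipid droplets) was detected, at -2.37, -2.55, -2.10 and -1.18, with replicate 4 the highest in a 2.59-fold range. Lpl (lipoprotein lipase, which frees fatty acids outside the cell) was called on replicates 1 and 3 at signals of 22.9 and 20.8, and lay at 5.38 and 4.97 on replicates 2 and 4. Soat1 (which esterifies cholesterol for storage) was called on no array.

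Of the fatty acid genes, Pparg and Fabp5 were detected. Pparg (the receptor behind the lipid programme of alveolar macrophages) was detected at 0.32, 0.39, 0.59 and -0.61 on replicates 1 to 4, a 2.29-fold range in which replicate 4 was the low array. Fabp5 (a fatty acid binding protein of macrophages) was detected by both of its probes, each printed 10 times. The probe that gave the gene's level had 2.92, 2.77, 2.80 and 2.82, with an SD of 0.06 (n = 4), and the other had 0.46, 0.11, 0.18 and -0.29. The SD of 0.06 moved with the settings, from 0.02 without replicate 1 to 0.80 with scaling by all gene probes. It was 0.40 with no scaling, 0.11 without replicate 4 and 0.17 with the median of the gene's probes. The other probe was lowest on replicate 4. Fabp4 (the fatty acid binding protein of fat cells and macrophages), Fasn (fatty acid synthase) and Scd (stearoyl-CoA desaturase) were called on no array. The probes of Acaca (acetyl-CoA carboxylase) disagreed. The first had signals of 3.70, 3.14, 3.71 and 122 on replicates 1 to 4 and the other 24.5, 2.76, 3.32 and 3.98, so that each was called on a single array, and not on the same one.

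**Figure D2:**
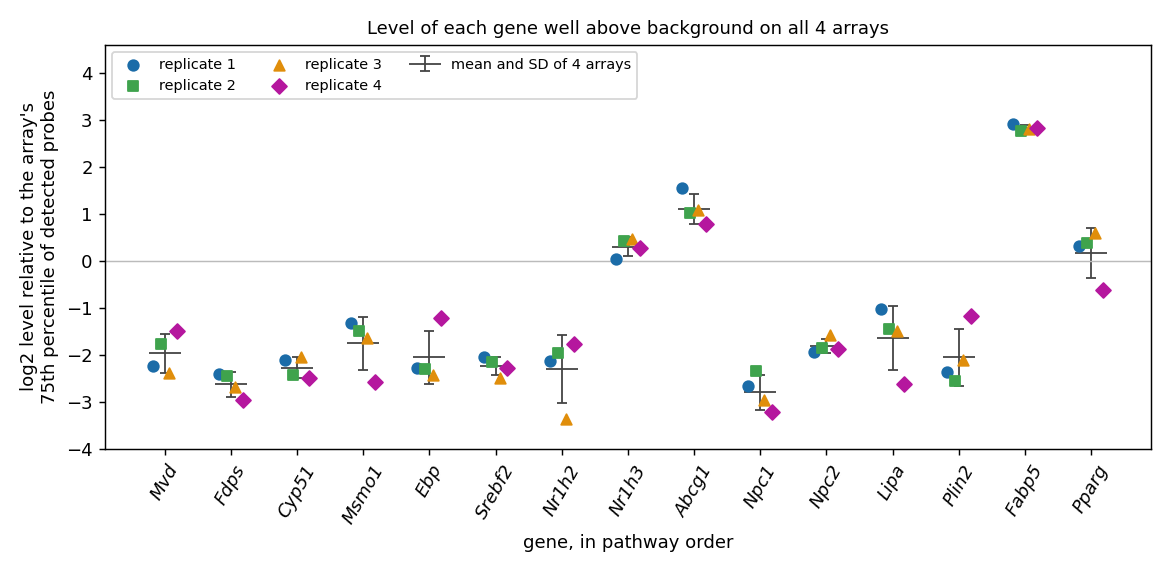
Points are the log2 levels of the 15 detected genes on the 4 arrays, relative to the 75th percentile of detected probes on each array, with the mean and SD drawn behind them. Heights of different genes cannot be compared, while within a gene replicate 4 lies below the others for Msmo1, Lipa and Pparg and above them for Ebp and Plin2.

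The 15 detected genes differed more between arrays than detected genes in general, by description. Their median SD was 0.37 on the log2 scale, against 0.24 over 1946 detected genes. Between highest and lowest array, 6 of 15 ranged over more than 2-fold (Msmo1, Ebp, Nr1h2, Lipa, Plin2 and Pparg), against 15.3% in general. Without replicate 4 only Nr1h2 of 19 detected genes did, against 3.66% in general, so the count rests on that array. The comparison also turned on the processing. After normexp background correction 0 of 15 ranged over more than 2-fold against 2.00% in general, with no scaling 11 (73.3%) against 52.8%, and with scaling by all gene probes 13 (86.7%) against 92.8%. The share was thus not above the general one with normexp and with scaling by all gene probes. With 15 genes, neither share can be read as lower. The median SD was 0.22 against 0.17 in general with normexp. With scaling by all gene probes it was 0.87 against 0.85, nearly the same. The spread also went with signal strength. Genes were sorted here by the brightness of their probe, which is not a measure of transcript amount. Of the detected genes below the median level 23.4% ranged over more than 2-fold, and 11 of the 15 genes, 5 of them over 2-fold, were among those. Of the genes at or above it 7.09% did, and here 1 of 4, Pparg. The median SD below the median level was 0.42 for the 11 genes against 0.30 in general. At or above it, the 4 genes had 0.26 against 0.19.

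**Figure D3:**
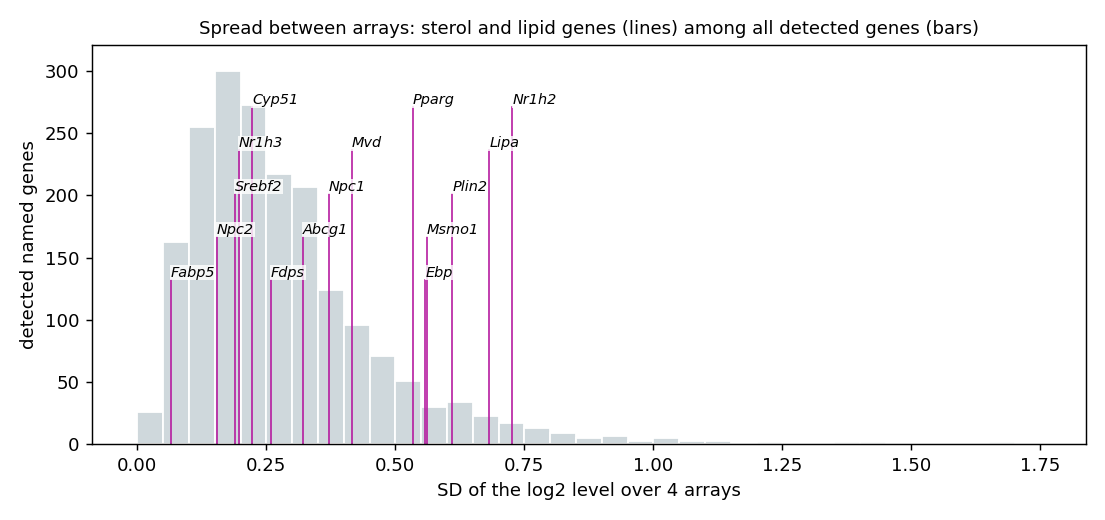
Bars count the 1946 detected named genes by the SD of their log2 level over the 4 arrays, and each line marks a sterol or lipid gene at its own SD. Fabp5 (0.06) lies at the low end and Plin2, Lipa and Nr1h2 (0.61, 0.68 and 0.73) in the upper tail.

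Replicate 4 was the lowest array for 7 of the 15 genes and the highest for 4, against 39.6% and 30.1% of detected genes in general. Set against the mean of the other arrays, it differed by -1.30 for Lipa, -1.09 for Msmo1 and -1.04 for Pparg on the log2 scale, and by 1.11 for Ebp and 1.16 for Plin2. The median of all detected genes differed by -0.07. Lipa, Pparg and Plin2 rested on 1 spot per array, while the probes of Msmo1 and Ebp were printed 10 times. Lipa, Msmo1 and Pparg were lower on replicate 4 under all 7 alternatives that kept 4 arrays. Among these 7, detection on at least 3 of 4 arrays left every level as in the main processing. It could not change the direction and says nothing of stability. Ebp and Plin2 were higher in 6, and lower (-0.46 and -0.40) when arrays were scaled by all gene probes, where the median of detected genes itself lay at -1.64. Fdps (-0.46) and Cyp51 (-0.31) lay at 0.02 and 0.03 with the normexp background correction, where the median of detected genes lay at 0.08. Relative to that median both kept a negative difference under all 7 alternatives. Of the 7 detected macrophage markers, 2 were highest on replicate 4 and 3 were lowest there (Fcgr1a, Fcer1g and Ctss). The 2 were Spi1, at -3.58, -3.48, -3.44 and -2.05 on replicates 1 to 4, and Cd68, at -3.47, -4.11, -3.83 and -2.71. Their part in these differences was not tested.

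For 8 probes printed 10 times, the spots of an array gave a measure of technical noise. The moderated F test of limma over the 4 arrays, with Benjamini-Hochberg adjustment over all 1350 such probes, called 5 of the 6 detected ones, against 74.6% of all detected ones, and 7 of all 8, against 81.0%. Most probes of this kind differed between arrays beyond spot noise, so the counts say nothing particular of these genes. Sqle had levels of -2.98 ± 0.19, -3.24 ± 0.24, -3.43 ± 0.31 and -5.11 ± 0.49 on replicates 1 to 4 (SD over 10, 10, 9 and 10 spots), and limma gave an adjusted p of 3.9e-16. Ebp had -2.28 ± 0.21, -2.29 ± 0.17, -2.42 ± 0.11 and -1.22 ± 0.22 (SD over 10, 10, 8 and 9 spots), with an adjusted p of 3.2e-15, and of 0.0919 without replicate 4. Msmo1 had -1.32 ± 0.14, -1.48 ± 0.18, -1.65 ± 0.17 and -2.57 ± 0.38 (SD over 9, 10, 10 and 10 spots), with an adjusted p of 7.1e-13. In all 3 genes replicate 4 differed from the others by more than the SD between spots. For Sqle none of the 10 spots on replicate 4 was well above background, so its level there is not a measured amount. Cyp51 (adjusted p = 0.00014, limma) and Fdps (adjusted p = 0.0007, limma) differed by less, over 1.37-fold and 1.48-fold ranges, and Fdps had 0.161 with normexp. Apoe (adjusted p = 6.4e-11, limma) was at background on replicates 1 to 3, so no fold is given, and it had 0.0617 without replicate 4. For Fabp5, limma gave an adjusted p of 0.0856 for the probe that gave the gene's level, which passed under 5 alternatives (normexp, quantile normalization, no scaling, scaling by all gene probes, and without replicate 4). The other Fabp5 probe had an adjusted p of 6.3e-07 by limma, and of 0.142 with all spots kept. These tests compare arrays and not conditions.

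**Figure D4:**
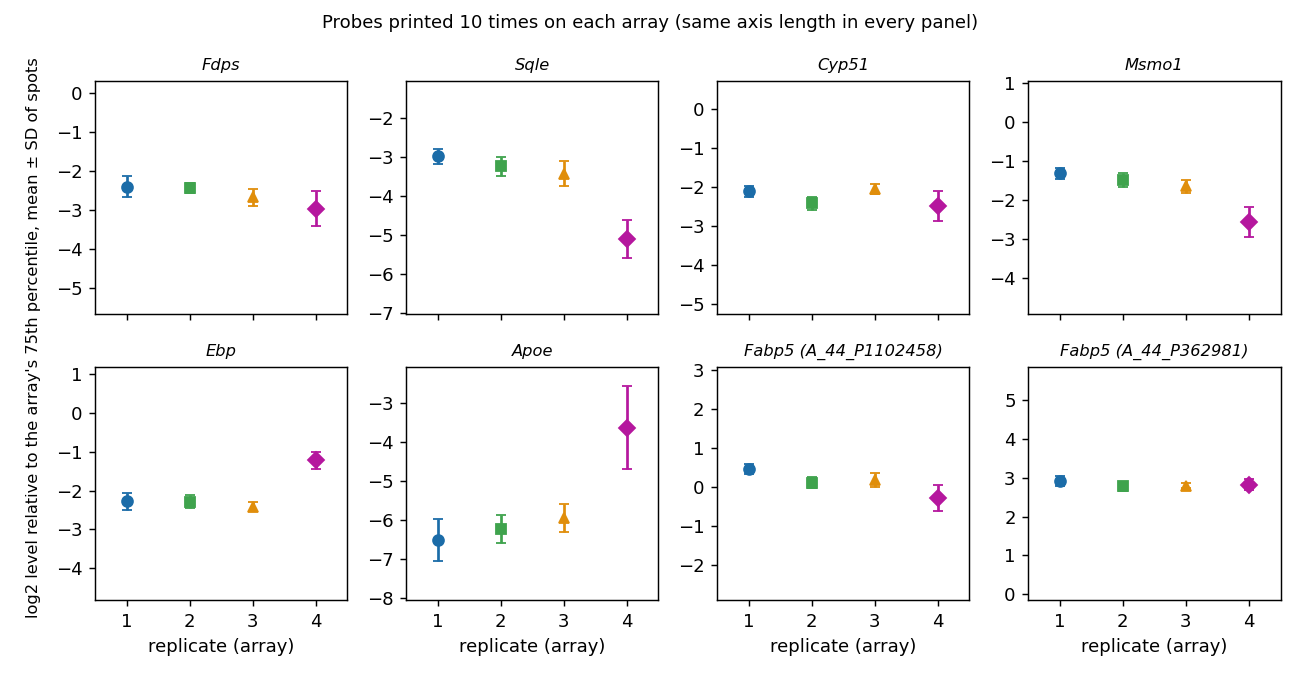
Each panel is a probe printed 10 times, with the mean and SD of its log2 level over the spots of each array, on axes of equal length. Sqle and Msmo1 are low and Ebp and Apoe high on replicate 4, while the Fabp5 probe that gave the gene's level stays between 2.77 and 2.92.

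A wider list of 79 other genes of sterol and lipid metabolism was set beside these. Of the 73 with a probe, 14 were detected (19.2%), against 11.9% of named genes. None of 7 further sterol enzymes was detected. Acat2, which supplies acetoacetyl-CoA, was called on some arrays. Mbtps1, a protease that cuts SREBP2, was detected at -2.45, -2.87, -3.59 and -2.49. Ch25h, which makes an oxysterol, was detected at -2.62, -2.83, -2.86 and -1.55 on replicates 1 to 4, with replicate 4 the highest.

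The fatty acid genes of that list were detected in 8 of 25 cases. Acly, which supplies acetyl-CoA for both sterols and fatty acids, was at -1.20, -1.51, -1.45 and -2.25, lowest on replicate 4. Of all 14 detected genes of the wider list, 6 were lowest on replicate 4 (42.9%) and 4 highest (28.6%), near the 39.6% and 30.1% of detected genes in general. The lowest there included Cpt2 (a mitochondrial carnitine transferase) at -2.15, -2.23, -2.61 and -3.18, Acadl (an acyl-CoA dehydrogenase) at -0.76, -1.05, -0.96 and -1.60 and Hadha (the trifunctional protein) at -0.90, -0.86, -0.62 and -1.45. Me1, Elovl1, Acsl5 and the uptake receptor Cd36 were the other detected ones, with SDs of 0.25, 0.08, 0.20 and 0.44 (n = 4). Of the storage list, Dgat1 (which makes triglyceride) had -2.04, -2.69, -2.78 and -1.55, and G0s2 (an inhibitor of triglyceride breakdown) had 1.36, 1.30, 1.27 and 2.07, both highest on replicate 4. Bscl2 (seipin, of lipid droplet formation), the other detected gene of that list, had 0.46, 0.32, 0.21 and 0.14 and was lowest there. Stard3 (a carrier of lysosomal cholesterol) had an SD of 0.37.

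The label of the cells was checked by markers. Of 16 macrophage markers 7 were detected (Cd68, Lyz2, Spi1, Fcgr1a, Tyrobp, Fcer1g and Ctss), and Csf1r, Mrc1, Itgam, Adgre1, Msr1 and Cd14 were called on no array. No marker of fibroblasts (5) or hepatocytes (4) was called on any array. Of 9 lung epithelium markers, Napsa was detected and Sftpb was called on some arrays. Of 4 adipocyte markers with a probe, which bear on Pparg, Fabp4 and Plin2, Retn was detected at 2.51, 2.46, 2.46 and 2.93, Cidec was called on some arrays, and Adipoq and Lep on none.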

How the data were processed

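RNA of 4 exposed cultures was measured on 1 array each. Per the file headers, the deposited files are 1-colour scanner output. The submitters' processing notes name Agilent Feature Extraction 11.0.1.1 as the tool. Processed signals are intensity on a linear scale after the software's background subtraction. Median signal and background intensity, as deposited, entered the normexp alternative. The flags (other columns) were used as deposited, per the file headers.

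The 4259 control spots and spots flagged as non-uniform or population outliers were left out. The log2 signals of a probe's spots were averaged, and a probe was called when over 50% of its spots were well above background. Arrays were scaled by the 75th percentile over probes called on all 4. The brightest detected probe gave a gene's level, and a gene counted as not called when none of its probes was called.

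Accessions, unversioned, matched the RefSeq table of GRCr8 for 21109 of 45598 probes, in 16581 genes. Of these, 16419 were measured on every array. The array design is annotated on an older build, per the file headers, so no probe coordinates are given. Promoter coordinates come from the RefSeq promoter table of GRCr8.

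The F test used limma version 3.58.1 in R version 4.3.3 on all 1350 probes printed 10 times (called at an adjusted p below 0.05), after a check on simulated data. Python version 3.11.15, numpy version 2.4.6 and pandas version 2.3.3 did the rest. Untreated cultures were not analysed here, so no comparison of conditions was made. Every member of the list is named, as the rule for named genes asked. The members, lists, motifs and tests were chosen with earlier results of these data known. Alternatives were normexp with an offset of 50, scaling by all gene probes, quantile normalization, no scaling, all spots kept, the median of a gene's probes, calls by negative controls (above their 95th percentile plus 10%), detection on at least 3 of 4 arrays, and leaving out each replicate. Some genes of the wider pathway list are not reported here by name.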

Additional observations from a re-analysis of the deposited data

Results flagged for a closer look

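A value was singled out when its highest or lowest array lay far from the others relative to the range of all 4, a test by Dixon that chance passes in about 1 of 20 groups. It was passed by 2 of 46 probes of the sterol and lipid genes, by 3 of 23 other pathway genes and markers and by 2 of 8 measures of the arrays, and by 7.66% of all detected genes. In each case replicate 4 was the high array. Ebp had a level of -1.22 on it. Of the Acaca probes, the one called on replicate 4 had -0.87 there. G0s2 had 2.07, the macrophage transcription factor gene Spi1 -2.05 and Retn 2.93. The array had 656 non-uniform spots and 1296 spots with either flag, against 9 to 34 and 546 to 596 on the others. The part of these spots in the high levels was not tested.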

How the results depend on the processing

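No paired analysis was possible because all samples form 1 group. The count of 15 detected genes was 15 to 21 over the alternatives run and 15 to 19 with 1 replicate left out. The highest, 21, came from calls by negative controls, where 21.5% of all genes were detected. The median SD of 0.37 was 0.22 with normexp, whose offset shrinks differences of dim signals, and 0.87 when scaled by all gene probes, against 0.17 and 0.85 for all detected genes. It was 0.24 to 0.44 with 1 replicate left out. The 6 genes over 2-fold were 0 with normexp, 13 with scaling by all gene probes and 11 with no scaling, against 39, 1806 and 1027 of 1946 detected genes, and 1 to 6 with 1 replicate left out. It was 5 to 9 with the other settings. Over all genes the 297 over 2-fold were 542 with quantile normalization, 1259 with calls by negative controls (of 3532 detected), 629 with detection on 3 of 4 arrays and 90 without replicate 4. The 5 of 6 detected probes that differed between arrays were 4 to 6 of 6 or 7 throughout. Over the 8 single probes, 4 calls were lost and 5 gained in 88 repeats, all named above. The repeats for calls by negative controls and for detection on 3 of 4 arrays reused the main p-values. They could not change and say nothing of stability. The low value of Nr1h2 on replicate 3 differed from the mean of the others by -1.42, and by -0.60 with normexp. Signals near background limit every statement on the 23 genes that were not detected.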
